A study of Mus musculus with 25 samples.

Results

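Mucins are long glycoproteins whose central region is rich in threonine, serine and proline and carries dense O-linked sugars. They coat the epithelia of ducts and airways. The 7 gene symbols described here were Muc1, Muc4, Muc5b, Muc6, Muc15, Muc16 and Muc20. They form 1 set because the estimated count of Muc5b was far higher in sperm RNA of DEHP-exposed FVB/N mice than in that of their vehicle controls, so that contrast is a description of the choice and was not tested. Of the 7 symbols, 6 were found in the table of 24358 genes, and Muc16 was not found under its symbol or any of its 4 RefSeq synonyms and was not analysed here.

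The RNA came from spermatozoa that swam out of the cauda epididymis of mice aged 14 weeks. Pregnant females received bis(2-ethylhexyl)phthalate (DEHP), a plasticizer, by mouth at 300 mg/kg/day from embryonic day 9 to 19, or corn oil as vehicle. The 25 libraries formed 5 conditions of 5 libraries each. Sons of vehicle-treated C57BL/6J females (C57.CTL.F1) are called vehicle C57BL/6J here, and sons of DEHP-treated ones (C57.D300.F1) exposed C57BL/6J. The same terms, vehicle FVB/N (FVB.CTL.F1) and exposed FVB/N (FVB.D300.F1), are used for the second strain. The next C57BL/6J generation, bred from exposed F1 males and unexposed females, is called C57BL/6J F2 (C57.D300.F2) and had no vehicle F2 condition beside it. The 10 libraries of vehicle C57BL/6J and exposed C57BL/6J were marked as re-analysed, and the 15 others were not, so a contrast between both sets cannot be told apart from a difference between the sets.

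The table held 1 estimated count per gene and condition, the 5 libraries combined, with totals of 6921688 to 8602900 per condition. The values of single libraries were not analysed here, so there was no spread between replicates, and no test could be made. The error given is the SD of the count in the model of Cuffdiff, the authors' program, and is called the model SD. Log2 ratios between conditions were computed with a pseudocount of 1. A gene was called higher or lower where the ratio reached 2 log2 units and at least 1 of both conditions had 10 counts.

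Mucins fall into gel-forming and membrane-bound types. Muc5b and Muc6 are secreted and link into polymers that make up mucus gels. Muc1, Muc4, Muc15 and Muc20 span the cell membrane, and Muc4 and Muc1 are known partners of ErbB receptors. The epithelium of the epididymis and the other ducts that carry sperm is lined by such glycoproteins. In these bulk samples, fewer cells of a type and less RNA per cell cannot be told apart.

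The coding sequences of the 7 genes shared the mucin composition. Codons for threonine, proline and the serines written TCN made up 29.0% of the Muc5b codons, the lowest share among them, and 39.0% of those of Muc4, the highest, where the median over 21604 annotated mouse genes was 15.6%. The windows of 100 codons below are from mm10 (GRCm38, GENCODE M21), each from 1 coding exon, and hold the most such codons in their gene; they show the sequence that defines a mucin, and how differently its repeats are built from gene to gene. ACN, CCN and TCN codons are in capitals. The Muc5b window is chr7:141859553-141859852 on the plus strand, in exon 31 of 49, with 58 codons in capitals. The Muc15 window is chr2:110731449-110731748 on the plus strand, in exon 2 of 4, with 48. The Muc4 window is chr16:32752983-32753282 on the plus strand, in exon 2 of 27, with 56, and the Muc20 window is chr16:32794304-32794603 on the minus strand, in exon 2 of 4, with 63.
Muc5b: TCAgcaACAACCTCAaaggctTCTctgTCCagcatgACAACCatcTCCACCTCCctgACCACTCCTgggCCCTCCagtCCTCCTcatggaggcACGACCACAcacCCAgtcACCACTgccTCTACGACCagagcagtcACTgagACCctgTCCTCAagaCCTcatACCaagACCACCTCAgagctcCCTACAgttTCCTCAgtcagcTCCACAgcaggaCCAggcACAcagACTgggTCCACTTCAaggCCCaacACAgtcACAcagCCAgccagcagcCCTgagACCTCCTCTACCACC
Muc15: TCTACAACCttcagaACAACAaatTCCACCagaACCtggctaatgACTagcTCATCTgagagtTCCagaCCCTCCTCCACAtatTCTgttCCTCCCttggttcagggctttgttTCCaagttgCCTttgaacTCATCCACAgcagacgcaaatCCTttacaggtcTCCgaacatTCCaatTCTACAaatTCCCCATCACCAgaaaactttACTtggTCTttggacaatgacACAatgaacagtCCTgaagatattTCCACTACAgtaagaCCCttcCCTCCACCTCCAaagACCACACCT
Muc4: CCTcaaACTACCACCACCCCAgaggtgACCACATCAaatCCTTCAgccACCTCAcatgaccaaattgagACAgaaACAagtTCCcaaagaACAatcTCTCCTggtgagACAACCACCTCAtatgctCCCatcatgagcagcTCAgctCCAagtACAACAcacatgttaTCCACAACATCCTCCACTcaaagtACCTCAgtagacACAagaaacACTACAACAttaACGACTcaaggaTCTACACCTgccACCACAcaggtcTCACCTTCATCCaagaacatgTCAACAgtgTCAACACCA
Muc20: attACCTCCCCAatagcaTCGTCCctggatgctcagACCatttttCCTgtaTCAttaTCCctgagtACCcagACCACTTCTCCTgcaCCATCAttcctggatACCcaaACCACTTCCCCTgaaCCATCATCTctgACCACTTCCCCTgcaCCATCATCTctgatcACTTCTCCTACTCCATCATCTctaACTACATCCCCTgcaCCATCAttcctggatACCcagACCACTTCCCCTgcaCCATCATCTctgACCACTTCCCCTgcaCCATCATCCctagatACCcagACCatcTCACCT

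Repeats differed more between the genes than composition did. Of all stretches of 25 bases in the longest transcript, 26.0% occurred more than once within Muc5b, 23.3% within Muc4, 16.8% within Muc6, 5.32% within Muc1, 1.04% within Muc20 and 0.0589% within Muc15. Few of these stretches occurred in another gene, at most 0.471% for any of the 6. For Muc5b the other gene was its neighbour Muc5ac, with 0.361%. The 2 mucins with the highest counts in exposed FVB/N relative to its control thus stood at opposite ends, Muc5b with the most repeats and Muc15 with the fewest.

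Muc5b (chr7:141839070-141873084, plus strand) is the gel-forming mucin of airway and cervical mucus. It had 9.51 counts in vehicle C57BL/6J, 9.54 in exposed C57BL/6J, 17.9 in C57BL/6J F2, 13.9 in vehicle FVB/N and 3279 in exposed FVB/N. The first 4 conditions lay close together, and exposed FVB/N stood far above them. The log2 ratio of exposed FVB/N to vehicle FVB/N was 7.78, a 236-fold difference. The difference of 3265 counts was smaller than its model SD of 3421. The model CV of Muc5b in exposed FVB/N (model SD over count) was 1.04, which was 3.31 times the median of genes with like counts, and in the other conditions it was 0.950 to 0.982 times that median. Which of the 5 libraries held these counts was not examined.

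Muc15 (chr2:110721340-110739527, plus strand) is a membrane mucin first known from milk fat globules. Its counts were 3.16, 5.41, 10.4 and 4.68 in vehicle C57BL/6J, exposed C57BL/6J, C57BL/6J F2 and vehicle FVB/N, and 953 in exposed FVB/N. The pattern was that of Muc5b, with exposed FVB/N alone at a high level. The log2 ratio to vehicle FVB/N was 7.39, or 204-fold, and the difference of 948 counts exceeded its model SD of 692. The model CV in exposed FVB/N was 0.726, 2.92 times that of genes with like counts.

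**Figure D1:**
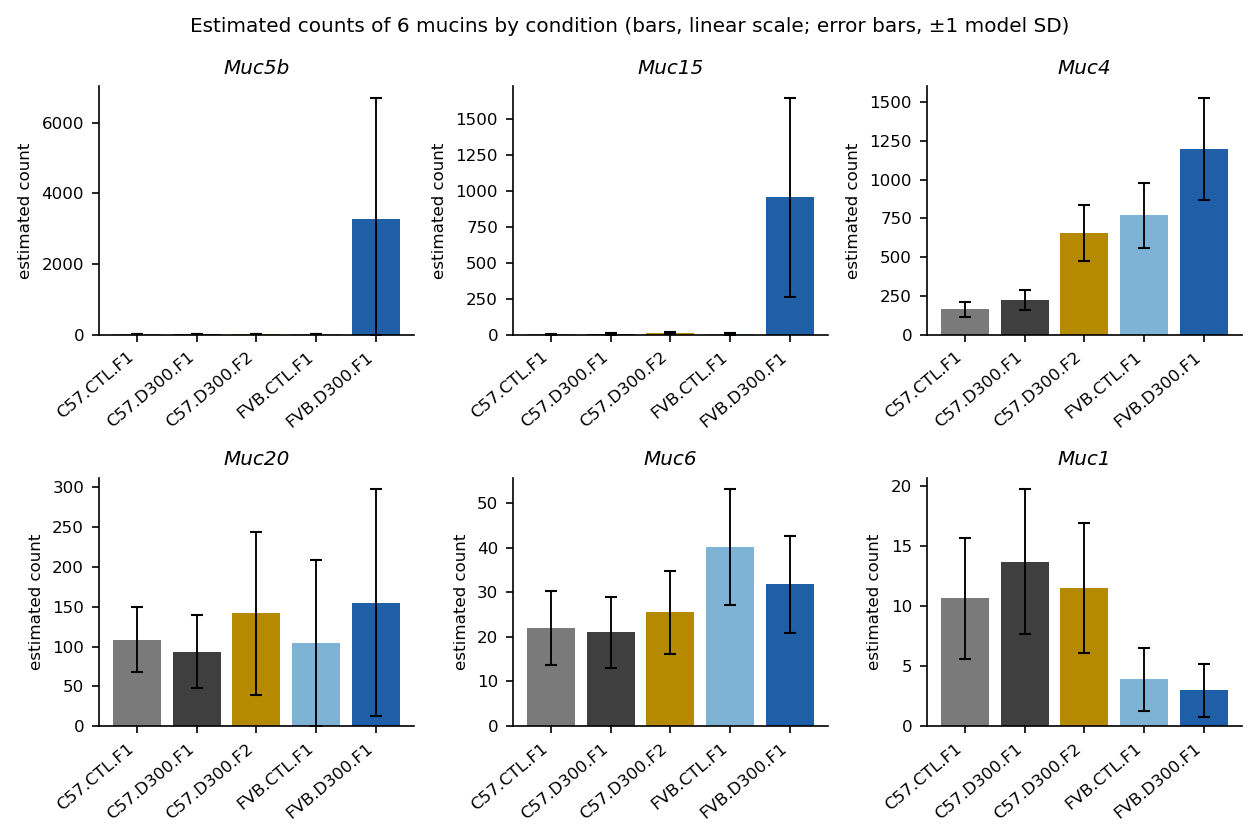
Estimated count (vertical axes, linear, each with its own range) of 6 mucins in the 5 conditions, with error bars of 1 model SD in each direction, cut at 0. Muc5b and Muc15 are high in exposed FVB/N alone (3279 and 953 counts), Muc4 is at 656 to 1199 in C57BL/6J F2 and both FVB/N conditions, and the Muc5b error bar reaches 0. The axis names the conditions as the labels do.

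Muc4 (chr16:32735886-32782391, plus strand) is a large membrane mucin that binds ErbB2. It had 163 counts in vehicle C57BL/6J, 225 in exposed C57BL/6J, 656 in C57BL/6J F2, 771 in vehicle FVB/N and 1199 in exposed FVB/N. The 2 re-analysed conditions were the lowest. The log2 ratio of exposed FVB/N to vehicle FVB/N was 0.64, with a difference of 428 counts against a model SD of 390, and Muc4 was not called. Its model CV stayed near that of genes with like counts, at 1.07 to 1.23 times their median.

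Muc20 (chr16:32777419-32797435, minus strand) is a small membrane mucin that binds the receptor Met. It had 108, 93.3, 141, 105 and 155 counts in vehicle C57BL/6J, exposed C57BL/6J, C57BL/6J F2, vehicle FVB/N and exposed FVB/N. The highest condition was 1.66 times the lowest, the narrowest range of the 6 genes. The model CV was 0.377 in vehicle C57BL/6J and 0.995 in vehicle FVB/N, 1.41 and 3.70 times that of genes with like counts, and each difference between conditions was within its model SD. Muc4 and Muc20 lie tail to tail on opposite strands and overlap over 4973 bases, 627 of them exonic in both. The reads were mapped with a strand-specific option, and whether the counting step used strand as well is not given in the sources used here.

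Muc6 (chr7:141633456-141655319, minus strand) is the gel-forming mucin of gastric and duodenal glands. It had 22.0, 21.0, 25.5, 40.1 and 31.7 counts in the same order of conditions. It was not called in any contrast, and its log2 ratio of exposed FVB/N to vehicle FVB/N was -0.33. Muc1 (chr3:89229057-89233381, plus strand), a membrane mucin of most glandular epithelia, had 10.6, 13.7, 11.5, 3.89 and 2.97 counts. Both FVB/N conditions were below the 3 C57BL/6J conditions, and counts this low leave little precision: a count of up to 3 was treated as the limit of detection.

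Per kilobase of annotated exon, the order of the mucins was not the same in every condition. In vehicle C57BL/6J the level was 26.9 counts per kb for Muc20, 13.8 for Muc4, 4.52 for Muc1, 2.35 for Muc6, 0.886 for Muc15 and 0.635 for Muc5b. In exposed FVB/N it was 267 for Muc15, 219 for Muc5b, 102 for Muc4, 38.5 for Muc20, 3.39 for Muc6 and 1.27 for Muc1. Muc5b was thus last in vehicle C57BL/6J and second in exposed FVB/N. In exposed FVB/N the neighbours Muc15 and Muc5b, Muc5b and Muc4, and Muc20 and Muc6 differed by less than the model SD of their difference. In vehicle C57BL/6J this held for Muc1 and Muc6 and for Muc15 and Muc5b. In C57BL/6J F2 and vehicle FVB/N Muc4 had the highest level, 55.8 and 65.5 counts per kb. Its lead over Muc20 was 20.7 counts per kb in C57BL/6J F2, within the model SD of 29.6, and 39.5 in vehicle FVB/N, beyond the model SD of 31.5.

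In the FVB/N contrast, 2 of the 5 mucins with enough counts were called higher and 0 lower. Over all genes, 0.662% of 16471 were called higher and 0.0182% lower. The members were chosen on this contrast, and nothing is read from their share. The median log2 ratio of the 5 was 0.64, beside 0.0046 over all genes. Called with the added condition that the difference exceed its model SD, Muc15 stayed and Muc5b did not, where 0.559% of all genes were called higher and 0.00607% lower. Muc15 reached the minimum count in this contrast through exposed FVB/N alone, so that it could hardly be other than higher.

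In C57BL/6J, no mucin was called with DEHP. With DEHP against vehicle 0 of the 4 mucins with enough counts passed, where 0.0357% of 16825 genes were called higher and 0.256% lower. The log2 ratios were 0.46 for Muc4, 0.34 for Muc1, -0.06 for Muc6 and -0.21 for Muc20. Muc5b and Muc15 were under 10 counts in both conditions, with log2 ratios of 0.00 and 0.62. All 6 differences were within their model SD. The same conditions differed in seminal vesicle genes, whose summed count over 9 genes was 240702 with vehicle and 696 with DEHP, and the part of this in the mucin values was not tested.

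The response to DEHP was then set against strain, as the log2 ratio in FVB/N minus that in C57BL/6J. It was 7.78 for Muc5b and 6.77 for Muc15. It was 0.77 for Muc20, 0.17 for Muc4, -0.26 for Muc6 and -0.64 for Muc1. Over 17556 genes, 0.997% were higher in FVB/N by 2 log2 units and 0.228% lower. This difference holds the contrast that chose the members, and it also crosses both library sets.

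**Figure D2:**
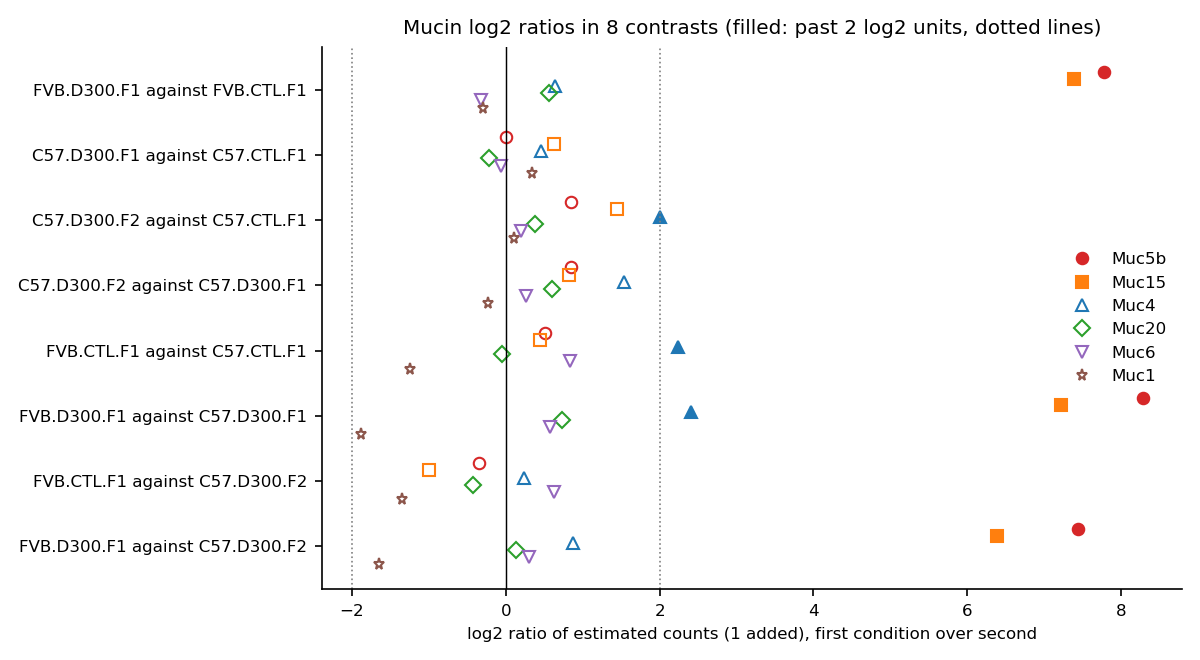
Log2 ratio of estimated counts (horizontal axis, 1 added to each count) of 6 mucins in 8 contrasts (rows), with filled symbols for ratios past 2 log2 units (dotted lines) with at least 10 counts. Muc5b and Muc15 lie beyond 6 in the 3 contrasts that hold exposed FVB/N and Muc4 between 2.01 and 2.41 in 3 contrasts across the library sets.

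Between generations, Muc4 was the one mucin called. Its 656 counts in C57BL/6J F2 were 4.04-fold those of vehicle C57BL/6J, a log2 ratio of 2.01, with a difference of 494 counts against a model SD of 187. The ratio lay at the limit for a call, and with median-of-ratios scaling or 10 counts added it was no longer called. In that contrast 1 of 6 mucins was called higher, and the background was 0.584% higher and 3.61% lower. Against exposed C57BL/6J the Muc4 log2 ratio was 1.54 and 0 of 6 were called (background 0.333% higher and 3.3% lower). Muc15 had log2 ratios of 1.45 and 0.83 in these contrasts and Muc5b 0.85 and 0.84, all within the model SD of the difference.

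Between strains, Muc4 was called higher in FVB/N when the re-analysed C57BL/6J conditions were used. Muc4 was 4.74-fold higher in vehicle FVB/N than in vehicle C57BL/6J, a log2 ratio of 2.24, and it was 1 of 5 mucins called (background 1.44% higher and 8.88% lower). Between exposed FVB/N and exposed C57BL/6J the Muc4 log2 ratio was 2.41, or 5.34-fold, and 3 of 6 mucins were called, the others being Muc5b at 8.28 and Muc15 at 7.22 (background 2.65% higher and 7.67% lower). Muc5b and Muc15 reached the minimum count here through exposed FVB/N alone, so that they could hardly be other than higher. Muc5b was chosen on that condition, and nothing is read from the share of mucins called. The Muc5b difference of 3269 counts was below its model SD of 3421 here too. Against C57BL/6J F2, which belongs to the same library set as the FVB/N conditions, Muc4 had log2 ratios of 0.23 in vehicle FVB/N and 0.87 in exposed FVB/N and was not called. The conditions of this contrast also differed in generation.

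The libraries of both sets differed in much else. The summed counts of 8 liver genes were 206389 and 169500 in vehicle C57BL/6J and exposed C57BL/6J and 649 to 4319 in the other conditions. The summed counts of 9 sperm and spermatid genes were 84474 and 70913 in the same 2 conditions, 28507 in C57BL/6J F2, and 6989 and 8332 in vehicle FVB/N and exposed FVB/N. Those of 13 pan-epithelial genes ran from 12362 in exposed C57BL/6J to 23744 in vehicle FVB/N, and were lowest in the 2 conditions where Muc4 was lowest. The part of these differences in the Muc4 result was not tested.

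Muc1 was not called between strains. Its log2 ratio was -1.35 for vehicle FVB/N and -1.65 for exposed FVB/N against C57BL/6J F2, and -1.25 and -1.89 against the C57BL/6J condition of like treatment. The differences of 6.73 to 10.7 counts were each larger than their model SD of 5.66 to 6.40, and none reached 2 log2 units. Against C57BL/6J F2, 0 of 6 mucins were called in vehicle FVB/N (background 0.707% higher and 2.5% lower). In exposed FVB/N against C57BL/6J F2, 2 of 6 were called higher, Muc5b at 7.44 and Muc15 at 6.39 (background 1.58% higher and 2.02% lower). Both calls rest on exposed FVB/N, the condition on which Muc5b was chosen, and nothing is read from their share.

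The other mucin genes did not share the Muc5b pattern. Of 17 listed, 9 were in the table and 5 had enough counts in the FVB/N contrast, of which 0 were called, with a median log2 ratio of 0.27. Muc2, the gel-forming mucin of the gut, had 8.58, 8.21, 9.69, 10.8 and 15.8 counts in vehicle C57BL/6J, exposed C57BL/6J, C57BL/6J F2, vehicle FVB/N and exposed FVB/N. Muc5ac, the gel-forming mucin of stomach and airway, had 1.11, 4.21, 6.09, 7.72 and 10.5. Both lie beside members on chromosome 7, and neither passed 15.8 counts. Ovgp1, a glycoprotein of oviduct secretion, had 72.5 counts in vehicle FVB/N and 87.7 in exposed FVB/N, Emcn, an endothelial sialomucin, 16.9 and 15.9, and Cd164, a small sialomucin of many cells, 895 and 753.

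The difference at Muc5b did not extend to the genes beside it. Muc5ac ends 19839 bases before Muc5b starts, and Tollip, an adaptor of Toll-like receptor signalling on the other strand, lies 1729 bases beyond its end. Tollip had 314 counts in vehicle FVB/N and 258 in exposed FVB/N, a log2 ratio of -0.28. Muc15 lies within the span of Ano3, an anoctamin gene on the opposite strand, with 61 exonic bases in common. Ano3 had 12.4 counts in vehicle FVB/N and 37.1 in exposed FVB/N, a log2 ratio of 1.51, where Muc15 had 953 in the latter. Next to Muc15 outside Ano3, Slc5a12, a lactate transporter, and 4930430A15Rik had log2 ratios of 0.48 and 0.51. The other neighbours in the table, Ap2a2 by Muc6, Tnk2 and Fyttd1 on either side of Muc4 and Muc20, and Mtx1 and Trim46 beside Muc1, had log2 ratios from -0.69 to -0.07.

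The genes with the profile closest to that of Muc5b were then listed. The distance was taken over the 5 conditions between centred log2 values, among 13621 genes with at least 50 counts in 1 condition. The 5 nearest were Defb30, a beta-defensin (distance 0.62), Gm15386 (0.69), Lcn6, an epididymal lipocalin (0.77), Muc15 (0.92) and Cst12, a reproductive cystatin (0.92). Defb30 had 5.88, 3.12, 11.7, 7.18 and 1829 counts, and Cst12 0.636, 0.990, 0.811, 0.614 and 299. Nearest to Muc15 were Lcn10 (0.53) and then Muc5b. Each of these genes had its high value in exposed FVB/N, the condition on which Muc5b was chosen, and that value sets the distance.

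**Figure D3:**
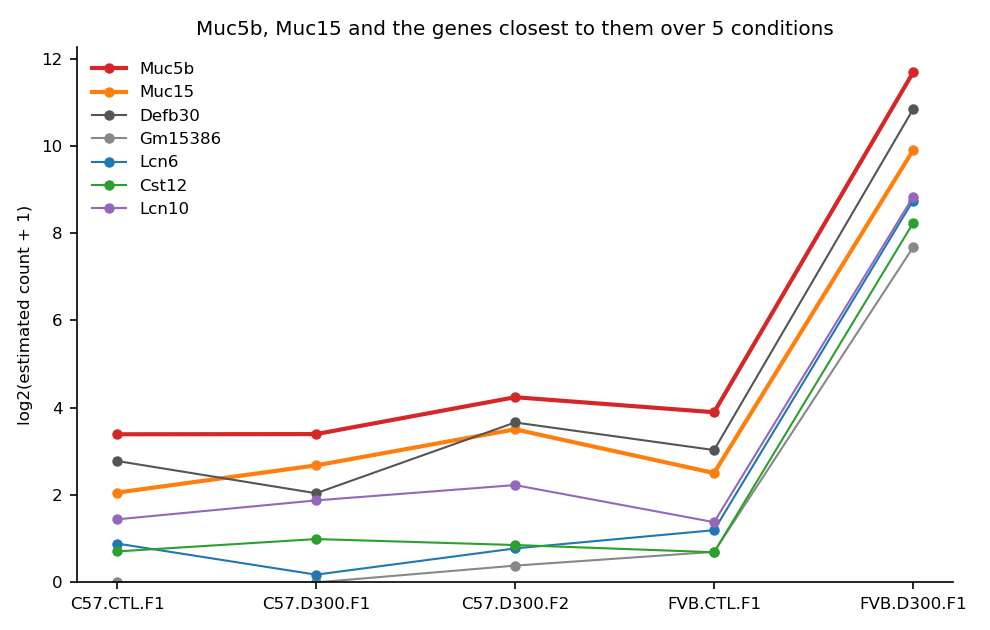
Log2 of the estimated count plus 1 (vertical axis) over the 5 conditions (horizontal axis) for Muc5b, Muc15 and the genes nearest to either by profile. All 7 lines are low in the first 4 conditions and high in exposed FVB/N, where Muc5b reaches 3279 counts and Gm15386, the lowest, 203.

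The other mucins had other neighbours by profile. Nearest to Muc4 was Borg (0.47), with 10.8, 18.3, 40.5, 56.5 and 65.9 counts, like Muc4 lowest in the re-analysed conditions. Nearest to Muc20 were Dnah11, a dynein heavy chain of cilia (0.11), and Mcf2 (0.13). Nearest to Muc6 were Sf3b5, a splicing factor subunit (0.07), and Arf3, a small GTPase of the Golgi (0.09), and nearest to Muc1 Arhgdib (0.17) and Serpinb8 (0.19). Each distance rests on 5 values per gene.

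Markers of the epididymal principal cell, the secretory cell of the duct, moved with Muc5b and Muc15. Of 18 listed, 15 were called higher in exposed FVB/N than in vehicle FVB/N and 0 lower, beside 0.662% higher over all genes, with a median log2 ratio of 6.69 (6.73 with counts under 3 set to 3). Of these, 10 had under 10 counts in vehicle FVB/N and reached the minimum count through exposed FVB/N alone, so that they could hardly be other than higher. Of the other 8, 5 were called higher, Gpx5 and Spag11b among them. The list's summed count was 25201 to 39261 in 4 conditions and 99494 in exposed FVB/N. Adam7, which was not called, held 37310 of it in vehicle FVB/N and 53922 in exposed FVB/N. None of the list's genes was at 0 in any condition. Some, such as Lcn6 (1.29) and Cst12 (0.614), were under the limit of detection of 3 counts in vehicle FVB/N. Gpx5, a secreted glutathione peroxidase, had 71.4 counts in vehicle FVB/N and 24121 in exposed FVB/N. Lcn5, a retinoic acid binding lipocalin, had 9.18 and 6686, and Spag11b, a defensin-like gene, 30.4 and 1613. Markers not called were Lcn12 (891 and 1155), Adam7 (37310 and 53922) and Rnase9 (797 and 2065). The list was drawn up with earlier results of these data known, and its part in the mucin result was not tested. Gpx5, Lcn5, Spag11b and Defb30, with others of the list, are RNAs that the authors reported from these same data as raised in exposed FVB/N. Nothing is therefore read from the share of the list called.

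Of the markers of other cells and glands, 1 was called, where 0.662% of all genes were called higher and 0.0182% lower. In the FVB/N contrast 0 of 6 clear cell, 0 of 4 basal cell, 0 of 1 ciliated cell, 0 of 13 pan-epithelial, 0 of 5 mesothelial, 0 of 5 smooth muscle, 0 of 6 leukocyte, 0 of 5 seminal vesicle, 0 of 8 liver and 0 of 9 sperm and spermatid genes with enough counts were called. The summed count of the pan-epithelial genes was 23744 in vehicle FVB/N and 21469 in exposed FVB/N. Of 3 prostate and coagulating gland genes 1 was called, Pbsn, a prostate secretory protein, with 0.559 and 18.4 counts, at least 6.13-fold. Pbsn reached the minimum count through exposed FVB/N alone, so that it could hardly be other than higher.

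**Figure D4:**
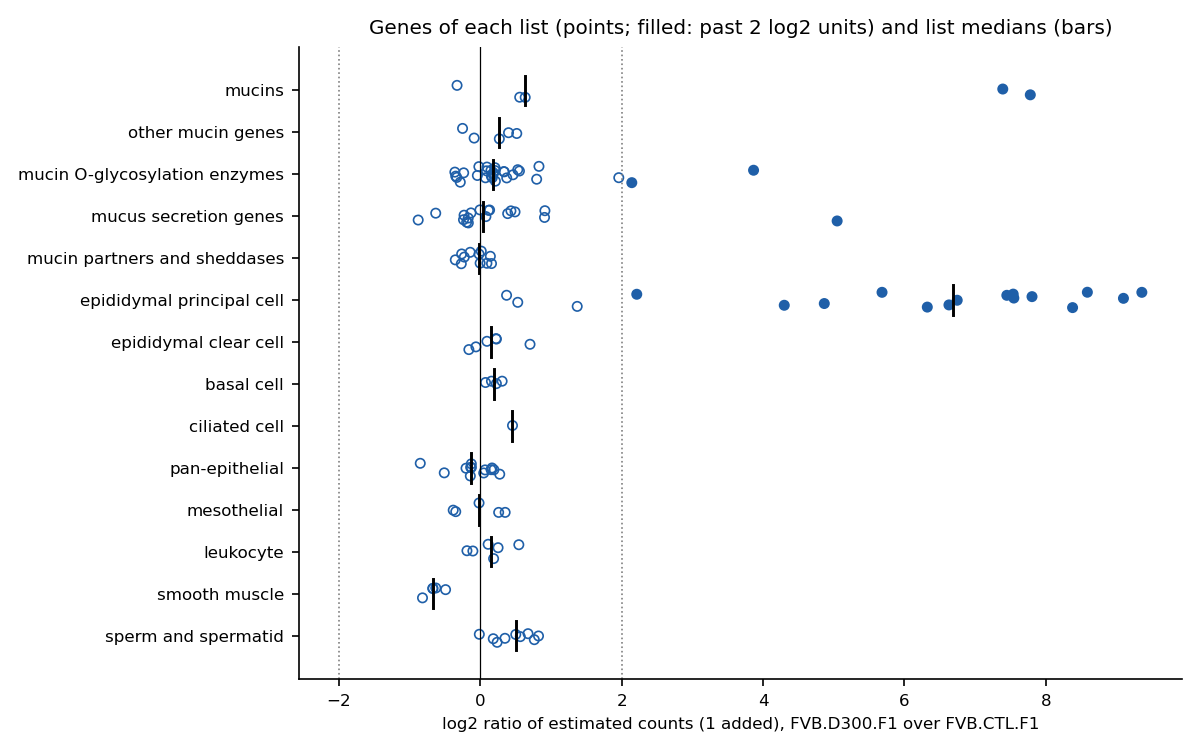
Log2 ratio of exposed FVB/N to vehicle FVB/N (horizontal axis, 1 added to each count) for genes of each list (rows, points) with the list median (black bars), without the seminal vesicle, prostate and liver lists. Of the principal cell markers 15 of 18 lie past 2 log2 units, beside 0.662% of all genes called higher. Of these 15, 10 reached the minimum count through exposed FVB/N alone and could hardly be other than higher. The list was drawn up with earlier results of these data known. The other epithelial lists lie around 0.

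The enzymes that build the O-linked sugars of mucins gave 2 calls. Of 29 with enough counts in the FVB/N contrast, 2 were called higher and 0 lower, with a median log2 ratio of 0.19. Over all genes, 0.662% were called higher and 0.0182% lower. Galnt12, which attaches the first sugar, had 27.8 counts in vehicle FVB/N and 126 in exposed FVB/N, a 4.54-fold difference. Fut1, a fucosyltransferase, had 3.66 and 67.1, or 18.3-fold. It reached the minimum count through exposed FVB/N alone, so that it could hardly be other than higher. Galnt14, a second first-sugar enzyme, had 16.5 and 66.9 counts and fell just short at a log2 ratio of 1.96. Galnt10, the enzyme with the highest count, had 2663 and 3913, a log2 ratio of 0.55, Galnt1 1667 and 1311, a log2 ratio of -0.35, and Galnt3 1558 and 1516. C1galt1, which extends the first sugar, had 402 and 331.

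Genes of mucus secretion gave 1 call. Of 18 with enough counts, Agr2 alone was called in the FVB/N contrast, beside 0.662% higher over all genes, with a list median of 0.04. In that contrast Agr2 reached the minimum count through exposed FVB/N alone, so that it could hardly be other than higher. Agr2 is a disulfide isomerase needed for intestinal mucin. Its counts were 3.44, 4.81, 24.0, 0.904 and 62.0 in vehicle C57BL/6J, exposed C57BL/6J, C57BL/6J F2, vehicle FVB/N and exposed FVB/N, so the ratio in FVB/N was at least 20.7-fold against a control at the limit of detection. Spdef, a regulator of goblet cells, stayed at 4.36 and 4.72 counts in FVB/N. Foxa1, a pioneer factor of glandular epithelia, had 239 and 451 counts, a log2 ratio of 0.92, and Cftr, the chloride channel that hydrates mucus, 59.5 and 113, a log2 ratio of 0.91. Partners and sheddases of membrane mucins gave 0 of 11, with a median of -0.02.

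The precision of the Muc5b and Muc15 counts was below that of most genes at their level. The median model CV over genes with at least 10 counts was 0.275 to 0.280 in every condition. In exposed FVB/N Muc5b, Muc15 and Muc20 had model CVs of 1.04, 0.726 and 0.920, and Muc4 and Muc6 0.274 and 0.345. Those of Muc4 and Muc6 were 1.07 and 0.973 times the median of genes with like counts. Some principal cell markers of high count had wide model SDs too. The difference of Gpx5 (24050 counts) and that of Lcn5 (6677) were also below their model SD of 80054 and 9206. Differences of other markers exceeded it, such as those of Defb30 (1821 against 1580) and Lcn6 (427 against 292).

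**Figure D5:**
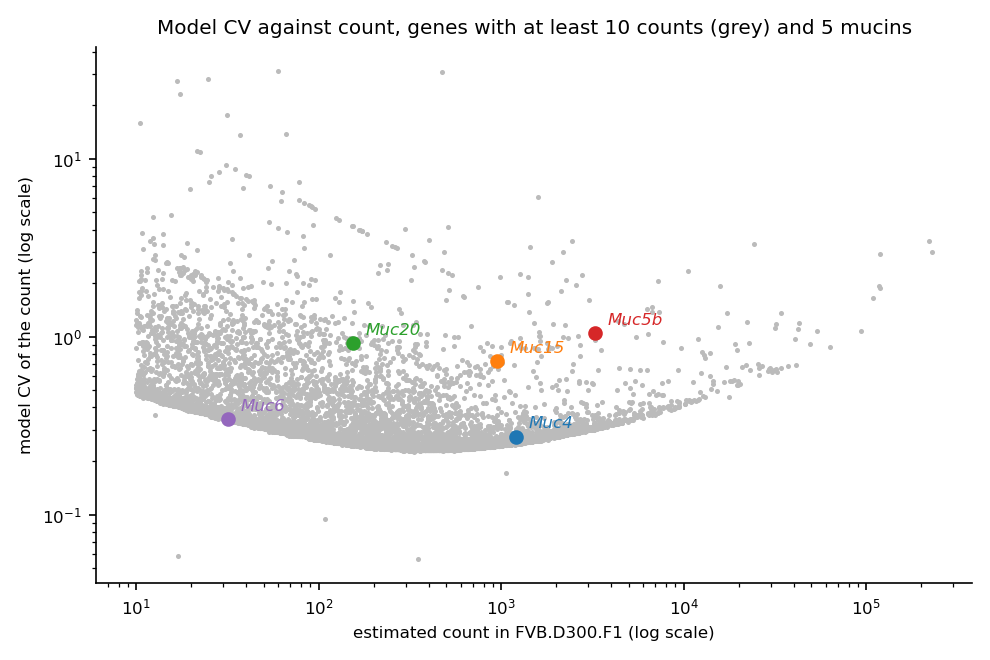
Model CV of the estimated count (vertical axis, log scale) against the count (horizontal axis, log scale) in exposed FVB/N for genes with at least 10 counts (grey points) and 5 mucins (coloured). Muc5b, Muc15 and Muc20 lie above the main band, at 1.04, 0.726 and 0.920, and Muc4 and Muc6 within it.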

How the data were processed

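Spermatozoa RNA of 25 mice was depleted of ribosomal RNA, fragmented and sequenced. According to the authors' methods, adapters were clipped, reads of at least 18 bases were mapped to mm10 with TopHat and counted with Cuffdiff. The submitters' processing notes also name CASAVA 1.8.2 and Cufflinks. The annotation release is not given in the sources used here. The deposited table holds, as the authors' value, 1 normalized signal (the estimated count) per gene and condition and the model's variance of it, an other unit with no scale of its own; 10 columns were used. Genes whose estimate failed (35 to 50 per condition, no mucin) were left out.

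Conditions were compared by log2 ratios with 1 added, in Python 3.11.15 with pandas 2.3.3 and numpy 2.4.6. A design for counts per library was not possible with 1 value per condition, so no p-value is given. A fold against 3 counts or fewer was computed against 3 and written as "at least". Model SDs of differences were combined in quadrature. The script that makes the calls was checked on simulated counts. Alternatives were other scalings, pseudocounts of 0.1 and 10, counts under 3 set to 3, minimum counts of 0 and 100, a threshold of 1 and a difference beyond the model SD.

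The text names all members, other mucins with at least 10 counts in a condition, up to 4 genes of each list called in the FVB/N contrast and up to 2 called elsewhere, coding neighbours, and the 5 genes nearest to Muc5b by profile and 2 for other mucins. A gene near Muc4 by profile is not reported here. Other genes (such as Galnt14, Galnt10, Galnt1, Galnt3, C1galt1, Spdef, Foxa1, Cftr, Lcn12, Adam7, Rnase9 and Ano3) were chosen after their values were seen. The members and lists were chosen with earlier results of these data known. Coordinates and sequences are from GENCODE M21 (GRCm38, the build mm10), and exon lengths may differ from the authors' annotation.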

Additional observations from a re-analysis of the deposited data

How the results depend on the processing

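No paired analysis was possible because the table holds 1 value per condition, and leaving out single replicates was not run for the same reason. The Muc5b log2 ratio in FVB/N was 7.10 to 7.87 over 6 alternatives, and its difference between strains 7.10 to 7.87. Requiring a difference beyond the model SD left 1 mucin called in exposed FVB/N against vehicle FVB/N and 1 against C57BL/6J F2, in place of 2. Against exposed C57BL/6J it left Muc4 and Muc15, 2 in place of 3, and with a pseudocount of 0.1 Muc1 was also called there, as lower. Between C57BL/6J F2 and vehicle C57BL/6J the count went from 1 to 0 with median-of-ratios factors and with 10 counts added, since Muc4 lay at the limit. A threshold of 1 log2 unit gave 2 mucins between C57BL/6J F2 and vehicle C57BL/6J and 1 between C57BL/6J F2 and exposed C57BL/6J. It gave 2 between vehicle FVB/N and vehicle C57BL/6J and 2 between vehicle FVB/N and C57BL/6J F2. Muc1 was then also called, as lower, in exposed FVB/N against exposed C57BL/6J and against C57BL/6J F2. The share of all genes past 1 log2 unit was not computed, and nothing is read from how many mucins passed it. Of 282 other alternative log2 ratios of single mucins, 279 stayed within the counting interval and 3 moved, all of Muc4 (2.32 and 2.28 for C57BL/6J F2 against vehicle C57BL/6J, and 0.61 for exposed FVB/N against C57BL/6J F2), and none of the called ones changed sign. The counting interval was taken from a binomial interval of both counts. It is wide at low counts, where an alternative could hardly leave it, so nothing is read from how many stayed. Scaling to equal totals moved the median of all genes to -0.13 in the FVB/N contrast and to between -0.27 and 0.28 over the 8 contrasts. Counts of Muc1 and of Muc15 outside exposed FVB/N were too low to show a difference of less than several-fold.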

Other observations

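A few genes of the mucus lists had large differences. Between vehicle FVB/N and vehicle C57BL/6J, 2 of 28 glycosylation enzymes, 3 of 19 mucus secretion genes and 1 of 11 partners and sheddases were called lower, beside 8.88% of all genes. That contrast crosses both library sets, and nothing is read from these shares. Pigr, the receptor that carries IgA across epithelia into mucus, had 1692 counts in vehicle C57BL/6J, 2408 in exposed C57BL/6J, 62.1 in C57BL/6J F2, 31.5 in vehicle FVB/N and 16.7 in exposed FVB/N. Egfr, a growth factor receptor that works with membrane mucins, had 2899 and 2404 counts in the re-analysed conditions and 429, 308 and 308 in C57BL/6J F2, vehicle FVB/N and exposed FVB/N. Foxa3, a regulator of endoderm-derived epithelia, had 88.2, 59.7, 3.41, 2.86 and 1.60 counts over the 5 conditions in the same order. St6galnac2, a sialyltransferase of O-linked sugars, had 5633 counts in vehicle C57BL/6J, 6281 in exposed C57BL/6J and 3720 in C57BL/6J F2, and 1119 and 1260 in vehicle FVB/N and exposed FVB/N. Pigr, Egfr and Foxa3 were highest in the 2 conditions where the 8 liver genes were highest, and the part of the liver genes in these values was not tested. St6galnac2 was higher in all 3 C57BL/6J conditions than in FVB/N.

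Other members of the lists were called elsewhere. Galntl5, a testis relative of the first-sugar enzymes, had 182 counts in vehicle C57BL/6J and 34.1 in vehicle FVB/N, where all 9 sperm and spermatid genes were called lower as well. It was 1 of 2 enzymes called lower there among 28, beside 8.88% of all genes. Bhlha15, a factor of secretory cells, had 41.1 counts in vehicle C57BL/6J and 8.29 in exposed C57BL/6J. Jchain, the joining chain of secreted IgA, had 25.6 and 251 counts in the same conditions. In that contrast 1 of 18 mucus secretion genes was called lower and 1 of 6 leukocyte genes higher. Over all genes, 0.256% were called lower and 0.0357% higher. Tgm4, of the coagulating gland, had 30.1 counts in vehicle C57BL/6J and 200 in C57BL/6J F2. Of 4 prostate and coagulating gland genes with enough counts there, 2 were called higher and 1 lower. Over all genes, 0.584% were higher and 3.61% lower. The summed count of that list was 14844.5 in vehicle C57BL/6J and 283 in C57BL/6J F2. Krt15, of basal cells, had 97.2 counts in exposed C57BL/6J and 411 in exposed FVB/N. Of 4 basal cell genes with enough counts, 1 was called higher there, beside 2.65% of all genes. The contrasts given for Galntl5, Tgm4 and Krt15 crossed both library sets.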
